A study of Homo sapiens with 6 samples.

Results

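The focal adhesion genes PTK2, VCL and TNS3 were host to 28 of the 9857 circular RNAs (circRNAs) listed in 6 libraries of BEAS-2B cells, an immortalised human bronchial epithelial line. Every listed circRNA whose single host gene was one of the 3 was taken, which gave 20 circles for PTK2, 5 for VCL and 3 for TNS3. The libraries were made from total RNA of cells kept for 20 weeks at 2.0 µM cadmium (3 libraries) or at 0.0 µM (3 libraries, the controls). All were subcultured every 3 days in the same serum-containing medium, and exposure started 6 hours after seeding. After depletion of ribosomal RNA the samples were treated with RNase R, an exonuclease that degrades linear RNA and spares most closed circles. Each count is a number of reads across a back-splice junction, where a downstream splice donor is joined to an upstream acceptor. The libraries held 133185 to 225769 such reads. Nothing in the labels says that replicates were separate cultures, so p-values cover only the variation among these libraries, part of which may be technical.

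Focal adhesions are the sites where integrins clustered in the membrane couple the extracellular matrix to actin. PTK2 encodes focal adhesion kinase, which is recruited to clustered integrins, phosphorylates itself and then binds SRC. VCL encodes vinculin, which binds talin and actin and strengthens the link under load, and TNS3 encodes tensin 3, which binds integrin tails and actin. Circles from such genes are usually made of internal exons, and they share their splice sites with the linear messenger RNA.

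The back-splice junctions of the 5 VCL circles and of 2 of the 3 TNS3 circles are shown because they identify the circles and show which of them share an end. That of TNS3 hsa_circ_0008729, which starts in noncoding bases, is not printed. The lower-case bases are the last 20 of the donor exon and the capitals are the first 20 of the acceptor exon, on the strand of the gene, 5′ to 3′, from GENCODE 29 transcripts (build GRCh38). The first 4 VCL circles carry the same capitals, the start of exon 3, and differ in the donor. The last pair of VCL circles share the donor of exon 11 and differ in the acceptor.
VCL hsa_circ_0007797: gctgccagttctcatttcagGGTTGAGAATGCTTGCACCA
VCL hsa_circ_0018881: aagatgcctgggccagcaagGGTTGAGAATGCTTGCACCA
VCL hsa_circ_0018883: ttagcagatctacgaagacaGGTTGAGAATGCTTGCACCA
VCL hsa_circ_0018884: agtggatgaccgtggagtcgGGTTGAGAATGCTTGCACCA
VCL hsa_circ_0018886: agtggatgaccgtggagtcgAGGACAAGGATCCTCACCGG
TNS3 hsa_circ_0006229: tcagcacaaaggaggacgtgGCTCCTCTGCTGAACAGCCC
TNS3 novel_circ_0035620: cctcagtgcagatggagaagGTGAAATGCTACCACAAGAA

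All 28 circles had both ends on an exon boundary of their gene in GENCODE 29, and for all 28 the exons of 1 transcript per gene added up to the spliced length given by the authors. The exons that the authors list for each circle added up to that length in 16 of the 28. Junction reads show only the ends of a circle, so the inner exons, lengths and residues below are those of the transcript and were not observed. Exons are numbered below from the 5′ end of those transcripts (33 exons for PTK2, 22 for VCL and 31 for TNS3). The exons of 19 of the 28 circles were wholly coding. The median spliced length was 482.5 bases (range 231 to 1304), beside 380 bases over all listed circRNAs. The length was a multiple of 3 in 8 of the 28.

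Summed over circles, PTK2, VCL and TNS3 each had a lower junction read level in all 3 cadmium libraries than in any control. None of the 3 sums passed the test after adjustment over 3008 host genes. For PTK2 (chromosome 8 of GRCh38, 140657900 to 141002216, minus strand) the controls gave 1110, 666 and 764 junction reads and the cadmium libraries 594, 541 and 641, in the order of the replicate numbers, which is kept below. Scaled to CPM (junction reads relative to the library total corrected by TMM factors), these were 5118, 4879 and 4790 CPM in controls and 4519, 4077 and 4112 CPM with cadmium. The means were 4929 ± 170 and 4236 ± 246 CPM (SD, n = 3 each), a level with cadmium of 85.9% of the control level. The log2 fold change was -0.22 (SE 0.099, edgeR unadjusted p = 0.0440, adjusted p = 0.382).

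VCL (chromosome 10, 73995193 to 74121363, plus strand) had 39, 24 and 28 reads in the controls and 18, 16 and 17 with cadmium. Its level was 177 ± 2.40 CPM in controls and 122 ± 14.01 CPM with cadmium (SD, n = 3 each), and the fold change fitted by edgeR gave 68.8% of control. The log2 fold change was -0.54 (SE 0.28, edgeR adjusted p = 0.463). TNS3 (chromosome 7, 47275154 to 47582558, minus strand) had 43, 30 and 36 reads in the controls and 18, 22 and 26 with cadmium. Its level was 215 ± 14.4 CPM in controls and 157 ± 16.96 CPM with cadmium (SD, n = 3 each), and the fold change fitted by edgeR gave 73.5% of control. The log2 fold change was -0.44 (SE 0.25, edgeR adjusted p = 0.506).

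**Figure D1:**
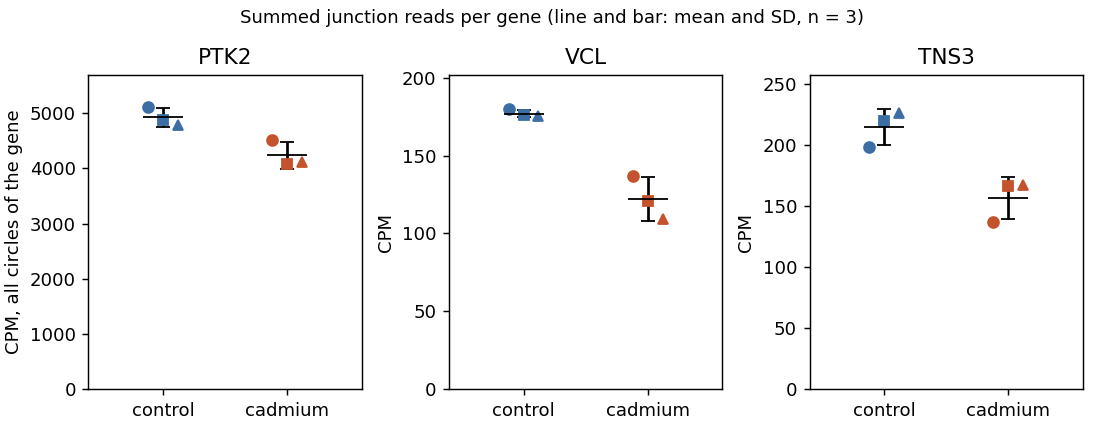
Summed back-splice junction reads of PTK2, VCL and TNS3 in CPM, 1 point per library (circle, square and triangle for replicates 1 to 3), with the mean and SD of each group of 3. For each gene the 3 cadmium libraries lie below the 3 controls, and PTK2 (4929 and 4236 CPM on average) stands far above VCL and TNS3 (122 to 215 CPM on average).

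Non-overlapping groups with the lower level in cadmium were found for 10% of the 3008 host genes tested, and an adjusted p under 0.05 for 0.233% of them (7 genes). PTK2, VCL and TNS3 were chosen with earlier results of these data known, so their sums are not weighed against that 10%. A junction read counts a circle whatever its length, so levels can be set side by side without a length term. By mean level over the 6 libraries PTK2 (4583 CPM) stood at rank 14 of the tested host genes, TNS3 (186 CPM) at rank 1248 and VCL (150 CPM) at rank 1441. By number of listed circles PTK2 shared rank 3 with the other hosts of 20 circles, 4 genes in all. In these bulk libraries fewer cells of a type and less RNA per cell cannot be told apart. Mesenchymal markers were also lower in point estimate: 4 of 9 listed markers (COL5A1, ZEB1, ZEB2 and BNC2) host a circle, and of these 4 were lower and 0 passed the test. Over all tested host genes 49.97% were lower in point estimate. The summed level of these 4 markers was 674 to 790 CPM in controls and 449 to 558 CPM with cadmium, and the other 5 (VIM, CDH2, FN1, COL1A2 and TWIST1) host no listed circle. The part of mesenchymal cells in the lower sums was not tested. None of 11 bronchial epithelial markers and none of 4 endothelial markers host a listed circle, so the labelled cell type cannot be checked from this table, and of 4 leukocyte markers 1 (DOCK2) does, at 12.8 to 69.0 CPM. DOCK2 was lower in point estimate as well (log2 fold change -0.46, edgeR adjusted p = 0.811).

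The 20 PTK2 circles lay between exon 2 and exon 32 and clustered at the 5′ end of the coding sequence. A group of 7 circles began at the acceptor of exon 3, behind an intron of 34891 bases, and took 67.2% of all PTK2 junction reads. Exon 3 holds the first codon after 32 noncoding bases, so each of these circles carries the start codon and codons from the N-terminal FERM domain, the part of the kinase that holds it inactive. Of the donors, that of exon 7 was used by 3 circles with 25.2% of the reads, that of exon 5 by 1 circle with 22.2%, that of exon 10 by 3 circles with 16.2% and that of exon 4 by 2 circles with 10.9%.

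**Figure D2:**
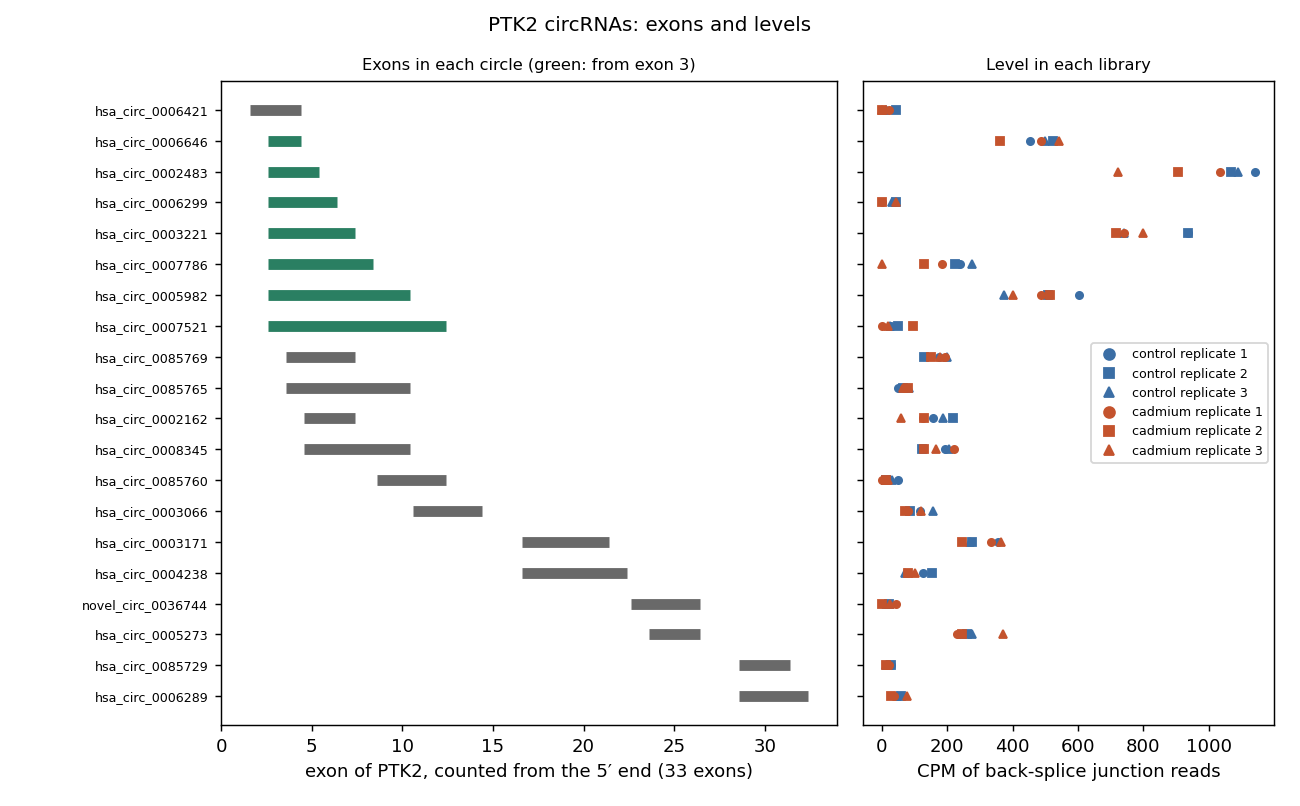
Left, the exons of each of the 20 PTK2 circles on the 33 exons of the gene, with circles from the acceptor of exon 3 in green. Right, the level of the same circle in each library in CPM (blue control, orange cadmium); the highest mean levels, 993 and 811 CPM, belong to the circles of exons 3 to 5 and 3 to 7.

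The most abundant PTK2 circle, hsa_circ_0002483, joins exons 3 to 5 (140864312 to 140890769, 482 bases, residues 1 to 150 of 1065). It had 254, 147 and 181 reads in the controls and 140, 125 and 113 with cadmium. On the CPM scale the 3 cadmium libraries (721 to 1035 CPM) lay below the 3 controls (1067 to 1142 CPM). Its log2 fold change was -0.31 (SE 0.16, edgeR adjusted p = 0.654), and it was -0.47 or -0.20 when cadmium replicate 1 or 3, in that order, was left out. The next, hsa_circ_0003221, adds exons 6 and 7 (140846260 to 140890769, 625 bases). It had 208, 129 and 123 reads in controls and 100, 99 and 125 with cadmium, and the groups overlapped (log2 fold change -0.21 with an SE of 0.16, edgeR adjusted p = 0.775, and -0.34 without control replicate 3).

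The circle of exons 3 to 10, hsa_circ_0005982 (140818277 to 140890769, 899 bases), had 134, 70 and 62 reads in controls and 66, 71 and 63 with cadmium. The shortest circle from exon 3, hsa_circ_0006646 of exons 3 and 4 (140879471 to 140890769, 394 bases), had 101, 72 and 83 reads in controls and 66, 50 and 85 with cadmium. The groups overlapped for both, with log2 fold changes of -0.09 (SE 0.21) and -0.08 (SE 0.20). Leaving out control replicate 1 turned the first to 0.087, and leaving out cadmium replicate 2 turned the second to 0.050.

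Further along the gene, hsa_circ_0003171 of exons 17 to 21 (140739018 to 140752316, 493 bases) covers residues 445 to 609, within the kinase domain. It had 79, 38 and 45 reads in controls and 45, 34 and 57 with cadmium. The circle of exons 24 to 26, hsa_circ_0005273 (140700891 to 140706205, 357 bases, residues 715 to 833), lies between the kinase domain and the C-terminal targeting domain. It had 53, 36 and 46 reads in controls and 31, 34 and 58 with cadmium. Their log2 fold changes were 0.06 (SE 0.23) and 0.14 (SE 0.24), with overlapping groups. The first was between -0.087 and -0.021 when control replicate 2, control replicate 3, cadmium replicate 1 or cadmium replicate 3 was left out, and the second was -0.13 without cadmium replicate 3.

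For a pair of less abundant circles of the 5′ cluster each cadmium library also lay below each control. Exons 5 to 7 form hsa_circ_0002162 (140846260 to 140864399, 231 bases, the shortest of the 28), which had 35, 30 and 31 reads in controls and 17, 18 and 9 with cadmium. Its level was 187 ± 30.1 CPM in controls and 105 ± 40.8 CPM with cadmium (SD, n = 3 each). The log2 fold change of -0.84 (SE 0.34) had an edgeR unadjusted p of 0.0257 and an adjusted p of 0.522, and without cadmium replicate 3 it was -0.55. Exons 3 to 8 form hsa_circ_0007786 (140830472 to 140890769, 680 bases), which had 53, 31 and 46 reads in controls and 25, 18 and 0 with cadmium.

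With the 0 as listed the log2 fold change of hsa_circ_0007786 was -1.27 (SE 0.76, edgeR adjusted p = 0.716), and without cadmium replicate 3 it was -0.67 (edgeR adjusted p = 0.566) and without cadmium replicate 1 it was -2.00. The level in the other 2 cadmium libraries would give 20.4 reads in that library. A listed 0 may not mean absence here: the smallest count above 0 in the table is 2, and 97 zeros of the whole table stand in libraries where 10 or more reads would follow from the rest of the group. With the circRNAs of those 97 zeros left out of the whole table, hsa_circ_0007786 being the 1 member among them, the log2 fold change of the PTK2 sum was -0.18 (edgeR adjusted p = 0.463) in place of -0.22. Of the 28 members 10 have a listed 0, with 3 zeros in controls and 11 with cadmium. The 3 zeros in controls are all those of VCL hsa_circ_0018883. Each of the 9857 listed circRNAs has reads throughout the controls or throughout the cadmium libraries. The zeros of a single circle therefore never fall in both groups. The split of zeros over all listed circRNAs is not given here, so nothing is read from 3 against 11.

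The remaining 12 PTK2 circles were at or below 174 CPM in both group means, and 7 of them were tested. The 5 others (hsa_circ_0007521, hsa_circ_0085760, hsa_circ_0085729, hsa_circ_0006421 and novel_circ_0036744) had a mean of at most 5.5 reads per library and did not pass the filter on low counts. Among the tested, hsa_circ_0006299 (exons 3 to 6) had 9, 6 and 5 reads in controls and 0, 0 and 7 with cadmium, so its log2 fold change of -1.22 had an SE of 1.059. The point estimates of the 6 others were between -0.40 (hsa_circ_0004238, exons 17 to 22) and 0.09 (hsa_circ_0085765, exons 4 to 10).

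Over the 3 genes 20 of 28 circles were tested (15 of PTK2, 3 of VCL and 2 of TNS3) and 0 passed an edgeR adjusted p of 0.05, beside 0.0809% of all 6182 tested circRNAs. Their edgeR adjusted p ran from 0.522 to 0.988. An unadjusted p under 0.05 with a lower level in cadmium was found for 1 of the 20, hsa_circ_0002162, and for 3.88% of all tested circRNAs. By DESeq2 and by limma on log2(TPM + 1) 0 members passed as well. Groups that did not overlap, lower in cadmium, were found for 3 of the 20 (hsa_circ_0002483, hsa_circ_0002162 and hsa_circ_0007786) and for 7.78% of all tested circRNAs. In the other direction there were 0 of the 20, but the share of all tested circRNAs was not counted there, so nothing is read from this 0. In point estimate 16 of the 20 were lower and 4 higher, with a median log2 fold change of -0.26. Over all tested circRNAs 49.3% were lower and the median was 0.01. The 20 circles come from 3 genes in the same libraries and are not independent, so 16 of 20 adds nothing to the lower sums. The medians by gene were -0.09 for PTK2, -0.72 for VCL and -0.66 for TNS3.

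**Figure D3:**
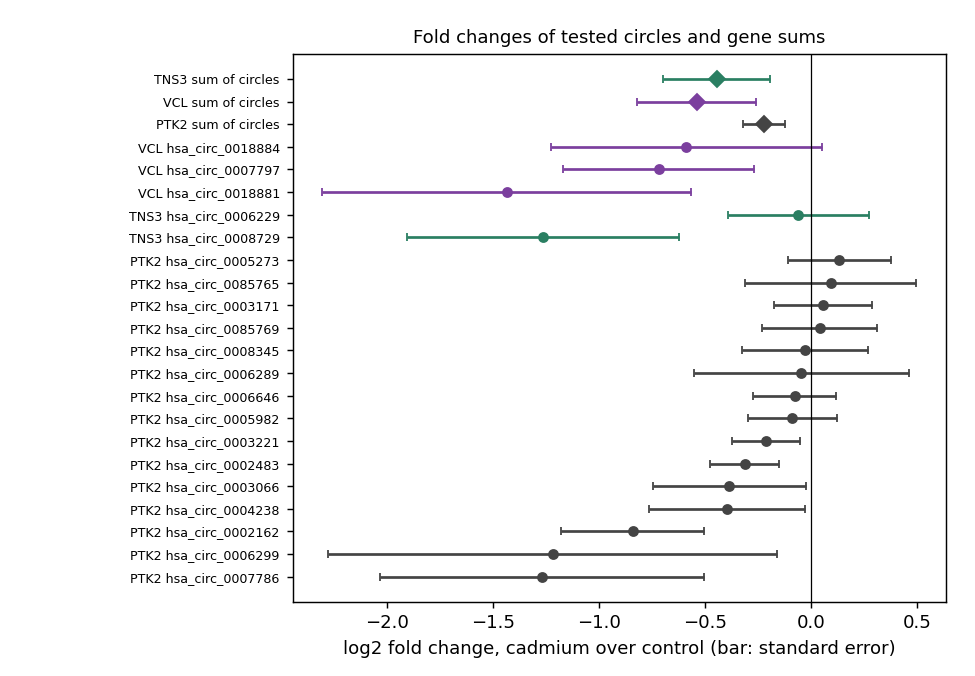
Log2 fold change of cadmium over control for the 20 tested circles and for the 3 gene sums (diamonds), with the standard error as the bar. Most points lie left of 0; the widest bars belong to circles with a listed 0 or few reads, and the PTK2 sum has the narrowest, 0.099.

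The shares of the PTK2 circles within the gene were compared with exact tests that cannot give a p below 0.1 with 3 against 3 libraries. The share of the gene's junction reads taken by hsa_circ_0002483 was 22.9, 22.1 and 23.7% in controls and 23.6, 23.1 and 17.6% with cadmium. The mean share was 18.1 ± 1.73% against 18.2 ± 1.34% for hsa_circ_0003221, 10.3 ± 1.004% against 11.2 ± 2.01% for hsa_circ_0006646 and 10.2 ± 1.99% against 11.4 ± 1.66% for hsa_circ_0005982 (control against cadmium, SD, n = 3 each). The differences were smaller than the SD in at least 1 group for each. All circles from the acceptor of exon 3 together took 68.1 ± 1.85% of the PTK2 reads in controls and 66.0 ± 3.92% with cadmium. Circles ending at the donor of exon 7 took 25.5 ± 1.05% and 24.95 ± 0.769%, and those ending at the donor of exon 10 took 15.2 ± 1.46% and 17.2 ± 1.57%.

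The largest difference among the PTK2 shares was that of hsa_circ_0007786, with 4.77, 4.65 and 6.02% in controls and 4.21, 3.33 and 0% with cadmium. This was 5.15 ± 0.757% against 2.51 ± 2.22% (SD, n = 3 each), with a two-sided exact permutation p of 0.1, the smallest possible, and 0.56 after adjustment over the 14 circles with a mean of 10 or more reads. Without cadmium replicate 3, which has the listed 0, the difference was -1.38 percentage points in place of -2.64 and smaller in size than that of hsa_circ_0005982 (1.88). No other of the 14 reached a p of 0.1. The share of hsa_circ_0002162 was 3.91 ± 0.688% in controls and 2.53 ± 1.003% with cadmium (exact permutation p = 0.2), a difference of -1.37 percentage points that was -0.81 without cadmium replicate 3.

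**Figure D4:**
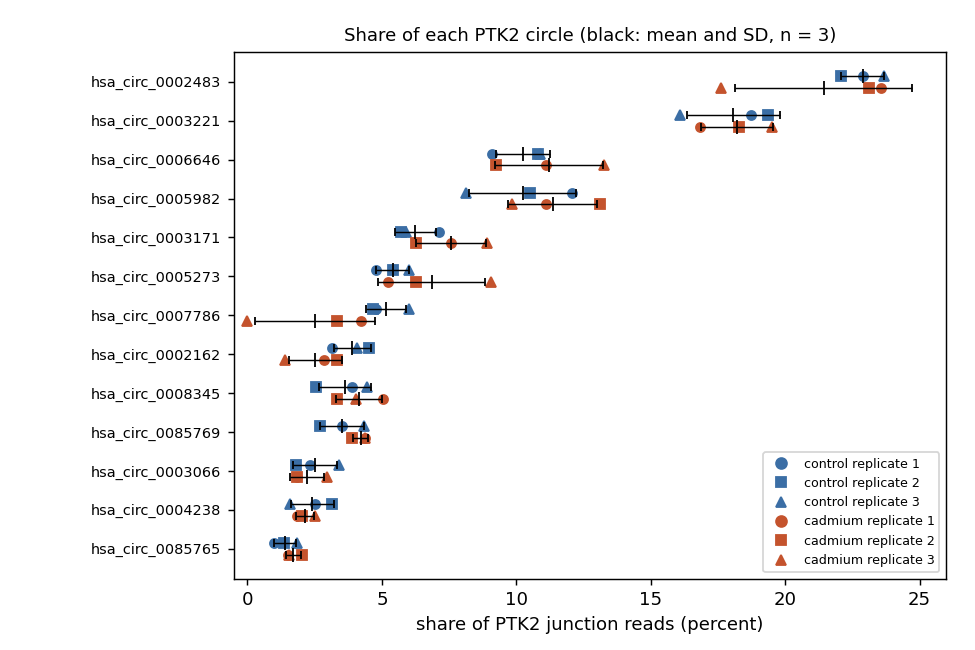
Share of the PTK2 junction reads taken by each of the 13 PTK2 circles with a mean of 10 or more reads, 1 point per library, with the mean and SD of each group of 3 in black. The same 4 circles have the highest mean shares in each group, and the point at 0% is the listed 0 of hsa_circ_0007786 in cadmium replicate 3.

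A model of circle usage, in which each circle is compared with the other circles of its gene (edgeR diffSpliceDGE), gave for hsa_circ_0007786 a log2 change of -1.05 relative to the rest of PTK2 (unadjusted p = 0.0065, adjusted p = 1). It was the 1 member with an unadjusted p under 0.05, a level reached by 2.66% of the 4482 circles in that test. After adjustment 0 members passed, beside 0.0223% of all circles. At the gene level (Simes) edgeR's adjusted p was 0.999 for PTK2, VCL and TNS3, and 0.0742% of 1347 genes passed. With limma voom and diffSplice in its place the log2 usage change of hsa_circ_0007786 was -2.96 (limma adjusted p = 0.00395), and the PTK2 gene-level adjusted p was 0.0166. Both models took the 0 of cadmium replicate 3 as listed, and its part in the difference between them was not tested.

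VCL circles were few in reads. Of the 5 circles, 4 began at the acceptor of exon 3, behind an intron of 27516 bases, and held 90.1% of the gene's junction reads, 90.9 ± 2.95% in controls and 88.2 ± 10.3% with cadmium. Exon 3 of VCL is coding and starts in the codon of residue 80. The leading circle, hsa_circ_0007797 of exons 3 to 5 (74070670 to 74072852, 383 bases, residues 80 to 208 of 1134, in the head of vinculin), had 18, 7 and 12 reads in controls and 6, 4 and 8 with cadmium. The groups overlapped in that control replicate 2 (50.8 CPM) lay just under cadmium replicate 3 (51.0 CPM), and the log2 fold change was -0.72 (SE 0.45, edgeR adjusted p = 0.704), or -0.29 without control replicates 1 and 3.

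The circle of exons 3 to 11, hsa_circ_0018884 (74070670 to 74094461, 1304 bases, the longest of the 28), had 8, 6 and 8 reads in controls and 2, 5 and 5 with cadmium (log2 fold change -0.59, SE 0.64). For hsa_circ_0018881 of exons 3 to 6 (74070670 to 74074903, 544 bases) 10, 8 and 6 reads were counted in controls and 5, 2 and 0 with cadmium (log2 fold change -1.43, SE 0.87). Neither passed (edgeR adjusted p = 0.852 and 0.698). Single libraries moved both values: hsa_circ_0018881 had -2.65 without cadmium replicate 1 and -0.84 without cadmium replicate 3, and hsa_circ_0018884 had -0.34 without cadmium replicate 1.

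The circle of exons 3 to 10, hsa_circ_0018883 (74070670 to 74090198, 1113 bases), went the other way, with 0, 0 and 0 reads listed in controls and 2, 2 and 4 with cadmium. It did not pass the filter on low counts and, since 1 read is never listed, no fold is given. A circle without reads in the controls could be listed only if every cadmium library had reads for it. The direction of this contrast was therefore given by the listing, and nothing is read from it. In the authors' deposited table hsa_circ_0018883 is the 1 member of 28 marked significant, with an unadjusted p of 0.0470 and no adjusted p. That table marks 506 circRNAs in all, its smallest adjusted p for a member is 0.998, and it has 21 members lower and 7 higher. The fifth VCL circle, hsa_circ_0018886 of exons 9 to 11 (74089196 to 74094461, 521 bases), had 3, 3 and 2 reads in controls and 3, 3 and 0 with cadmium.

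TNS3 gave 3 circles from separate places in the gene, with no end in common. The leading one, hsa_circ_0006229 of exons 18 to 20 (47344755 to 47346356, 369 bases), covers residues 761 to 884 of 1445, before the C-terminal SH2 and phosphotyrosine-binding domains. It had 23, 19 and 15 reads in controls and 16, 14 and 15 with cadmium, and the groups overlapped (log2 fold change -0.06 with an SE of 0.33, edgeR adjusted p = 0.974). Without control replicate 2 its sign turned, to 0.072. Its share of the TNS3 reads was 53.5, 63.3 and 41.7% in controls and 88.9, 63.6 and 57.7% with cadmium (exact permutation p = 0.2), a difference of 17.2 percentage points that was 7.83 without cadmium replicate 1.

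At the start of the gene hsa_circ_0008729 of exons 5 to 8 (47435282 to 47442055, 399 bases, residues 1 to 108) carries the first codon behind 75 noncoding bases. It had 18, 2 and 17 reads in controls and 2, 6 and 4 with cadmium. Control replicates 1 and 3 stood above the other 4 libraries and control replicate 2 at the bottom, so the controls span the cadmium values (log2 fold change -1.26 with an SE of 0.64, edgeR adjusted p = 0.643). The third, novel_circ_0035620 of exons 14 to 16 (47396800 to 47400914, 301 bases), had 2, 9 and 4 reads in controls and 0, 2 and 7 with cadmium and did not pass the filter.

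**Figure D5:**
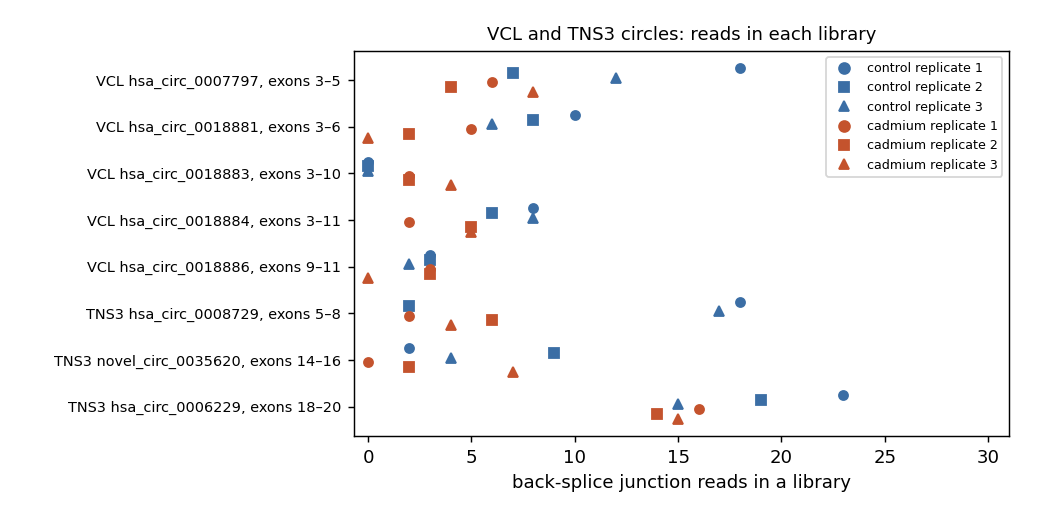
Back-splice junction reads of the 5 VCL and 3 TNS3 circles in each library (blue control, orange cadmium, marker shape for the replicate). No circle exceeds 23 reads, and control replicate 2 lies apart from the other controls for hsa_circ_0008729, at 2 reads against 17 and 18.

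Control replicates 1 and 3 also stood apart in another measure, the junction share. It sets doubled junction reads against these plus the deposited non-junction reads at the same circle. How non-junction reads were counted is not stated in the labels or the file. Over the 6090 circRNAs above 0 in every library the controls had 46.1, 29.2 and 48.9% and the cadmium libraries 29.98, 31.7 and 30.3%. For PTK2 (14 circles) it was 33.9, 29.5 and 34.6% in controls and 29.6, 28.7 and 30.4% with cadmium, a smaller spread than over all circRNAs. For VCL (2 circles) it was 18.6, 5.98 and 21.3% in controls and 5.37, 5.22 and 5.36% with cadmium, and for TNS3 (2 circles) 52.2, 21.0 and 57.1% against 36.4, 32 and 22.9%. Two-sided exact permutation p-values were 0.4 over all circRNAs, 0.3 for PTK2, 0.1 for VCL and 0.4 for TNS3, where 0.1 is the smallest possible.

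In each sum the cadmium libraries all lie below each control, so the direction against control replicate 2 alone was given in advance. Without control replicates 1 and 3 the log2 fold changes of the PTK2, VCL and TNS3 sums were -0.23, -0.55 and -0.51, given for their size only. With the junction share of each library as a covariate they were -0.22, -0.53 and -0.46. That share was high in control replicates 1 and 3 only. The covariate fit therefore also rests mainly on control replicate 2 against cadmium and is no separate check. For hsa_circ_0008729, whose reads were high in control replicates 1 and 3, the covariate turned the log2 fold change from -1.26 to 0.74 (edgeR adjusted p = 0.935). This turn too rests mainly on control replicate 2.

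Single PTK2 circles differed widely in the junction share, also among those that begin at the same acceptor. Of the circles from exon 3, those listed in all 6 libraries ranged from 48.3 to 55.8% (hsa_circ_0003221), 42.7 to 56.3% (hsa_circ_0002483), 48.3 to 62.04% (hsa_circ_0005982) and 28.2 to 39.4% (hsa_circ_0006646). The 3 others from that acceptor, over the libraries that list them, ranged from 17.6 to 35.9% (hsa_circ_0007786), 4.84 to 26.8% (hsa_circ_0007521) and 3.67 to 5.02% (hsa_circ_0006299). The highest values were those of hsa_circ_0005273 (exons 24 to 26), 56.9 to 86.2%, and hsa_circ_0002162, whose groups did not overlap in level, ranged from 4.19 to 12.3%. These are values of single circles in the same libraries, given as a description.

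Other focal adhesion genes gave no common direction. Of 91 genes listed by role, 37 host a listed circRNA and 29 were tested as sums, of which 0 passed the adjusted threshold. An unadjusted p under 0.05 was found for 3 of the 29 that were lower, PTK2 among them, and 2 that were higher, beside 6.58% and 5.88% of all 3008 tested host genes. Without PTK2, VCL and TNS3, 26 were tested, 14 lower and 12 higher in point estimate, with a median log2 fold change of -0.07 beside 0.0011 over all host genes. Among 15 integrin genes ITGA1 and ITGA3 host a listed circle and neither was tested. The linkers between integrin and actin had 4 tested genes beside VCL and TNS3, 2 lower and 2 higher, and the kinases, scaffolds and adaptors had 11 beside PTK2, 5 lower and 6 higher.

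Among the lower genes the smallest p-values were those of PAK1, a kinase activated by RAC1 and CDC42 (24, 13 and 19 reads in controls, 7, 5 and 8 with cadmium, log2 fold change -1.18, edgeR adjusted p = 0.231) and DOCK5, an exchange factor for RAC1 (-1.02, edgeR adjusted p = 0.236). Among the higher genes they were those of CRK, an adaptor that binds phosphorylated paxillin and BCAR1 (19, 11 and 13 reads in controls, 17, 24 and 34 with cadmium, 1.08, edgeR adjusted p = 0.204), PIP5K1C, a lipid kinase bound by talin (0.54, edgeR adjusted p = 0.204), and ARHGEF7, an exchange factor that binds PAK kinases (0.42, edgeR adjusted p = 0.407). The most abundant were ASAP1, an ARF GTPase-activating protein that binds focal adhesion kinase (4418 CPM, near the 4583 CPM of PTK2), CRKL (1020 CPM) and DOCK1 (1016 CPM). Their log2 fold changes were -0.15, 0.15 and -0.22.

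Host genes whose level followed the member genes most closely over the 6 libraries were taken from 1835 hosts with a mean of 100 CPM or more, by the root mean square distance of centred log2 CPM. Nearest to PTK2 were PPHLN1 (0.042), MELK (0.0517) and TANGO6 (0.0555). Nearest to VCL were CCNL2 (0.0692), the antisense gene FLG-AS1 (0.0765) and CEP128 (0.0827), and nearest to TNS3 were RAB23 (0.0625), the tight junction gene TJP1 (0.0633) and PCYOX1 (0.0681). None of these 9 passed the test between groups (smallest edgeR adjusted p 0.186, for FLG-AS1). They were chosen for following genes that did not pass, so nothing is read from this.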

How the data were processed

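The members and the gene lists were chosen with earlier results of these data known. The authors deposited counts of junction reads per library as whole numbers, and the deposited TPM values, used in 1 alternative, are those counts as a share of the library total. The authors' comparison table gives a mean normalised signal per group, log2 fold changes and p-values, quoted only as theirs. The submitters' processing notes name Bowtie2 2.2.8, Bowtie, DESeq 1.10.1 and hg19, while the deposited positions fall on GRCh38 exons (28 of 28 members), so GRCh38 coordinates are given with starts raised by 1. The circRNA caller was not given in the sources used here.

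Counts were tested with edgeR 4.0.16 (quasi-likelihood, robust, TMM, filterByExpr with a minimum count of 5 and a minimum total of 15) in R 4.3.3, over all circRNAs and over sums per host gene, with Benjamini-Hochberg adjustment and a threshold of 0.05. From the sums 314 circRNAs with several host genes or none were left out. Circle usage was tested with diffSpliceDGE on the same fit. Shares were tested with two-sided exact permutation tests. Chi-square over degrees of freedom was 1.59 to 2.49 within groups, so no library repeated the counts of another in its group. Listed zeros that may not mean absence can add to these values. They therefore cannot tell technical replicates from separate cultures. Reads carry no molecular identifiers. Alternatives were other size factors and filters, DESeq2 1.42.0, limma 3.58.1, a replicate block, each library left out, and 3 added after seeing the data (the junction share as a covariate, control replicates 1 and 3 left out, circRNAs with an implied 0 left out). Circles with full values are the 6 (PTK2) or 3 (VCL, TNS3) highest in mean CPM, plus those with an unadjusted p under 0.05. From the focal adhesion list the 3 smallest p-values in each direction and the 3 highest levels are named, except that 1 gene and the counts of 1 group of the list are not reported here.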

Additional observations from a re-analysis of the deposited data

How the results depend on the processing

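The log2 fold changes of the PTK2, VCL and TNS3 sums kept their direction and stayed short of the threshold in all 48 alternative values, with ranges of -0.28 to -0.18, -0.64 to -0.46 and -0.52 to -0.37. In each sum the cadmium libraries all lie below each control, so fits that leave out libraries, or the fit with the covariate, could hardly turn the direction. The other fits use the same counts, so the 48 values are not independent. DESeq2 gave no adjusted p for VCL and TNS3. No member circle passed in any fit of levels.

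Counts over the whole table moved more. Instead of 7 host genes, 11 passed by DESeq2, 4 by limma on log2(TPM + 1) and 3 without control replicates 1 and 3. Instead of 5 circRNAs, 3 passed with the junction share as a covariate and 3 without control replicates 1 and 3. Instead of 1 circle and 1 gene, usage calls were 0 and 0 with the stricter filter, 4 and 3 with limma voom diffSplice (1 of them a member circle, hsa_circ_0007786), 2 and 2 with the covariate and 4 and 3 without control replicates 1 and 3. Leaving out 1 library gave 0 to 13 circRNAs, 3 to 13 host genes, 0 to 6 usage circles and 0 to 4 usage genes; 13 circRNAs passed without control replicate 2 and 0 without control replicate 1. The causes were not tested.

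With the replicate number as a block the PTK2, VCL and TNS3 sums had -0.22, -0.53 and -0.46, 4 circRNAs and 6 host genes passed, and usage calls fell to 0 and 0. The deviations of same-numbered libraries had correlations of 0.0002, 0.0216 and 0.0517, and those of differently numbered libraries -0.0447 to 0.0261. Deviations of low counts from a group mean are noisy, so this check cannot tell whether the numbers pair the samples.

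Signs turned with the covariate for hsa_circ_0008729 (0.74). With 1 library left out they turned for hsa_circ_0005982 (range -0.28 to 0.087), hsa_circ_0006646 (-0.22 to 0.050), hsa_circ_0005273 (-0.13 to 0.22), hsa_circ_0006229 (-0.20 to 0.072) and hsa_circ_0003171 (-0.087 to 0.20). Share differences, in percentage points, turned likewise for hsa_circ_0002483 (-2.51 to 0.455), hsa_circ_0006646 (-0.0813 to 1.93) and hsa_circ_0003221 (-0.842 to 0.831, and -0.251 without the most abundant circle). A few reads per library limit VCL, TNS3 and the rare PTK2 circles.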
